A study of Mus musculus with 33 samples.

Results

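Stromal cells of bones from mice given the IIA injection were examined by single-cell RNA sequencing. Members were chosen by their own transcripts. A member was a hashtag-assigned, quality-filtered cell with at least 1 UMI (unique molecular identifier, here a counted transcript) for at least 3 of the 6 genes Cxcl12, Col1a1, Col1a2, Col3a1, Lepr and Pdgfrb. This found 83 members among 22362 kept cells of a pooled library of 26666 barcodes. The levels of these 6 genes are therefore a description, and no test sets the levels of the members against those of the other cells.

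Bone stroma is the non-blood tissue of the marrow and bone surface. Its mesenchymal cells include reticular cells that hold blood stem cells in place with CXCL12 and stem cell factor, the osteoblast lineage that makes bone from type I collagen, fibroblasts of the periosteum, tendon and joint, and pericytes around vessels. In bone metastasis such cells are known as neighbours of tumour cells and as a source of matrix, of chemokines and of the signals that drive osteoclasts.

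The study used SAMENT, a method in which injected tumour cells tag the cells beside them with biotin. Femurs and tibias were taken after overnight labelling with the substrate, dissociated with collagenase, and sorted by their biotin signal. The pooled library held 12 hashtagged samples, 6 tagged (biotin positive) and 6 untagged (biotin negative), each numbered 1 to 6, all given the treatment named only as IIA in the labels. The sources used here name no tumour line, mouse strain or age. A second set of bone libraries, 4 biotin positive and 4 biotin negative, came from intracardiac injections and was multiplexed with CellPlex. There are no uninjected mice among the samples used, so each comparison is between tagged and untagged cells of injected bones. The labels do not say whether equal numbers mean the same animal, and p-values measure only the spread between these samples.

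Samples were told apart by TotalSeqC hashtags, antibodies that carry a short DNA tag. All 12 tags had 15 bases, and any 2 of them differed at 7 or more positions. The tags of the biotin positive samples 3, 2 and 5 are shown because these samples held 61 of the 83 members (73.5%), so that most of what follows rests on these 3 sequences having been read correctly. All their letters are in capitals, since the whole tag identifies the sample.
Biotin positive replicate 2, tag C0303: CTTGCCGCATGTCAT
Biotin positive replicate 3, tag C0305: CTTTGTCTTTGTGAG
Biotin positive replicate 5, tag C0309: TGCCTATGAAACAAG

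Kept cells per sample numbered 249 to 3480, and their summed UMIs 2149784 to 27903856. The summed UMIs of the members ranged from 4004 to 686952 per sample, so values in the samples with few members are the least certain. Members had a median of 19397 UMIs against 3284 in the other kept cells, and a deeper cell has more chances to show 3 markers. The hashtag rule leaves out barcodes with a high second hashtag, as doublets between samples would have. Doublets were not otherwise removed, and the part of those left in was not tested.

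Assignment to a hashtag failed more often for cells with stromal markers than for barcodes at large. Of 173 barcodes with at least 3 markers, 89 (51.4%) had no assigned hashtag, against 14.9% of all barcodes. None of the 89 had under 10 hashtag counts. Their top hashtag had a median of 107 counts and their second a median of 70, against 615 and 58 in the members. In 34 of the 89 the top hashtag was that of biotin positive replicate 3. The members are thus 83 of 173 barcodes with this marker profile, and how the other barcodes divide between the sorts is not known.

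**Figure D1:**
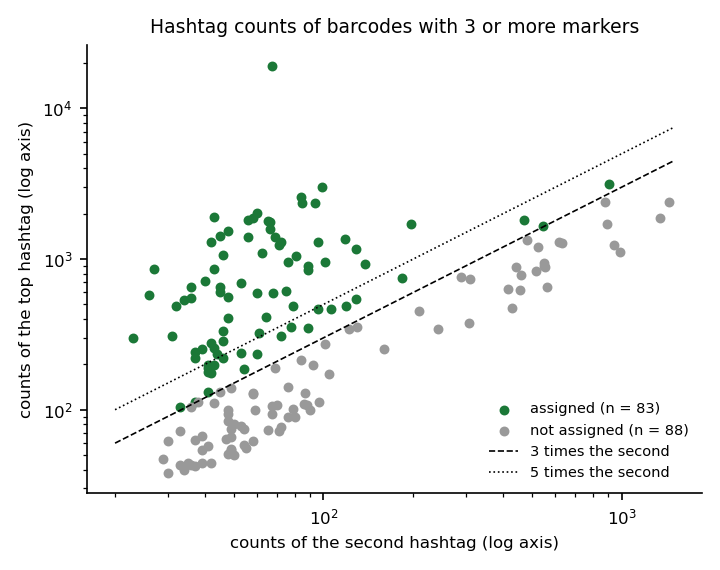
Counts of the top hashtag against the second hashtag, both on log axes, for the 171 barcodes with 3 or more markers that passed the quality filters; each point is 1 barcode. The 83 assigned barcodes lie above the dashed line of 3 times the second hashtag, and the 88 others lie below it at lower top counts for the most part.

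The collagen genes of the rule carried the members. Col3a1 (type III collagen of soft connective tissue) was found in 82 of the 83 members and Col1a1 (the main chain of type I collagen; chr11:94936224-94953042, plus strand, mm10) in 81. Pdgfrb, the platelet-derived growth factor receptor of mesenchymal cells, was found in 66 and Col1a2, the partner chain of Col1a1, in 59. Cxcl12, the chemokine of marrow reticular cells (chr6:117168535-117181367, plus strand, mm10), was found in 37, and Lepr, the leptin receptor that marks those cells, in 11. Per 10000 UMIs over all members the levels were 79.9 for Col3a1, 48.7 for Col1a1, 27.1 for Col1a2, 2.04 for Cxcl12, 1.52 for Pdgfrb and 0.190 for Lepr. In the other kept cells the same genes stood at 0.325, 0.0160, 0.00378, 0.00101, 0.0203 and 0.00176 per 10000 UMIs.

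Free RNA was gauged in lymphocytes, which should lack these genes. Of 668 cells with T cell markers (median 2264.5 UMIs), 4 had a UMI of Col3a1 and 1 had one of Col1a1. Of 1505 cells with B cell markers (median 1771 UMIs), 14 had a UMI of Col3a1 and 7 had one of Col1a1. These reference cells were shallower than the members, so their shares are not matched for depth.

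The most common combination was all of Cxcl12, Col1a1, Col1a2, Col3a1 and Pdgfrb, in 25 members, followed by Col1a1, Col3a1 and Pdgfrb alone, in 18. One member had all 6 genes. At the threshold, 25 members had exactly 3 of the genes, and 36 kept cells with 2 stayed outside. The 25 had a median of 21303 UMIs and 22.6 UMIs of Col1a1 per 10000. The 36 had a median of 17649 UMIs, 1.32 of Col1a1 per 10000, and in 22 of them at least 3 of 8 genes common to all blood cells.

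Other genes that were not used by the rule described the members as matrix-making mesenchymal cells. Of 29 extracellular matrix genes, 28 stood higher in the members than in the other kept cells, and 25 were found in most of the members. The median log2 difference of the list, with 0.1 added per 10000 UMIs, was 5.29. Sparc, a collagen-binding protein of bone and connective tissue, was found in 82 members at 37.7 per 10000 UMIs. Fn1, fibronectin, was found in 81 members at 38.9. Bgn, a small proteoglycan, was found in 80 at 13.5, and Serpinh1, the chaperone that procollagen needs to fold, in 80 at 11.7. Tnc, tenascin C, a matrix protein of remodelling tissue and of metastatic niches, was found in 71 at 17.6.

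Genes known from connective tissue fibroblasts were also common. Of 15 such genes, 14 were higher in the members and 9 were found in most of them. Dcn, the proteoglycan decorin, was detected in 77 members, Fbn1, the fibrillin of microfibrils, in 78, Lum, lumican, in 69, and Pdgfra, the growth factor receptor of fibroblasts, in 67. Genes of universal fibroblasts were less widespread, with Pi16 in 17 members and Clec3b in 12.

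The profile of adipogenic reticular cells was present only in part. Ebf1, a transcription factor shared by these cells and B cells, was found in 76 members, and Igfbp4, an insulin-like growth factor binding protein, in 80. Foxc1 and Ebf3, transcription factors that maintain reticular cells, were found in 32 and 37. Kitl, which encodes stem cell factor, was found in 28. The defining genes Adipoq (adiponectin), Il7 (the lymphoid growth factor) and Lpl (lipoprotein lipase) were found in 1, 1 and 9 members.

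Osteoblast genes divided in the same way. Of 14 such genes 12 were higher in the members than in the other kept cells, and 3 were found in most of the members. Sparc, given above with the matrix genes, is on this list too and was found in 82 members. Runx2, the transcription factor that starts the lineage, was found in 70 members, and Spp1, osteopontin, in 66. Genes of later osteoblasts were rare, with Ibsp (bone sialoprotein) in 10 members, Bglap2 (osteocalcin) in 8, Alpl (alkaline phosphatase) in 8, Sp7 (osterix) in 5 and Dmp1 (a gene of osteocytes) in 2. The Ibsp signal was concentrated, and 5 cells held 95.1% of its 205 UMIs. Among factors that act on osteoclasts, Csf1 (the macrophage growth factor) was found in 50 members, Sfrp4 (a secreted Wnt inhibitor) in 34, Wnt5a in 21, Tnfsf11 (RANKL) in 17, Il6 in 15 and Tnfrsf11b (the RANKL decoy receptor) in 11.

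Lubricin was among the genes with few, very high cells. Prg4 encodes this protein, which coats cartilage and synovium (chr1:150449412-150466165, minus strand, mm10), and was found in 35 members with 4245 UMIs, of which 74.2% came from 5 cells and 867 from a single cell. Of the 10 genes of the cartilage list, which includes Prg4, 7 were higher and 3 lower in the members than in the other kept cells. At least 2 of these genes were found in 18 members, and 0 of the 10 were found in most of the members. The cartilage genes Acan, Col2a1, Col10a1 and Matn1 were found in 6, 3, 0 and 0 members. Comp, another cartilage gene, had 228 UMIs in the members, of which 5 cells held 219. Mmp13, a collagenase of cartilage and bone, was found in 19 members, 6 of which also had Prg4 and 7 Ibsp. Thbs4, a thrombospondin of tendon, was found in 22 members and Mgp, the inhibitor of calcification matrix Gla protein, in 61.

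Pericyte genes marked few cells. At least 2 of 12 pericyte and smooth muscle genes were found in 22 members. Acta2, smooth muscle actin, was found in 23 and Rgs5, a pericyte regulator of G protein signalling, in 4, with 82 UMIs of Rgs5 in all.

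Of 20 immune signal genes of stroma 16 were higher in the members, but only 4 were found in most of them, and the list summed to 33.4 per 10000 UMIs against 44.1 in the other kept cells. Il1r1, the interleukin 1 receptor, was detected in 74 members, Cxcl1 and Ccl2, which attract neutrophils and monocytes, in 51 and 43, and the complement gene C3 in 37. Cxcl14, a chemokine of fibroblasts and reticular cells, was found in 42. Cxcl9, the interferon-induced T cell attractant, was found in 28 members, and 5 cells held 70.7% of its 882 UMIs. Tslp was found in none of the 83. In the TGF-beta and BMP list 16 of 20 genes were higher in the members, among them the co-receptor Tgfbr3 in 77 members and the latent TGF-beta binding genes Ltbp3 and Ltbp1 in 64 and 58. Of 12 cell cycle genes 10 were lower in the members than in the other kept cells, and Mki67 was found in 19 members.

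Genes of other lineages were checked as whole lists. Endothelial genes summed to 0.789 per 10000 UMIs against 0.602 in the other kept cells, with 6 of the 12 genes higher in the members. Of this sum 0.557 came from Eng, found in 35 members, while Kdr, Tie1, Ptprb and Flt4 were at 0 and Cdh5 was found in 1 member. There were 11 members with at least 2 endothelial genes and 3 with at least 3. The Schwann cell list summed to 0.0949, with Sox10 at 0, the T cell list to 0.0652, with Trac at 0, and the erythroid list to 0.0474. The B cell list summed to 5.38 in the members, 5.32 of it from Ebf1, a gene shared with reticular cells, against 3.45 in the other kept cells, while Ms4a1 and Pax5 were at 0 and Cd79a was found in 5 members. In the macrophage list, which summed to 0.308, C1qa, C1qc and Trem2 were at 0. The 16 epithelial genes summed to 0.113, with Epcam and Cdh1 at 0 and no member with 3 or more of them. Neutrophil genes summed to 71.8 per 10000 UMIs over all members against 1606 in the other kept cells, and were unevenly spread: 302 in the 18 members with blood cell genes and 2.94 in the 65 without, 308 in negative and 15.6 in positive members. S100a8 was found in 68 members and S100a9 in 64. Of the 83 members 18 carried blood cell genes (Ptprc, the common leukocyte antigen, or at least 3 of the 8 pan-blood genes), and 65 did not.

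Members with and without a UMI of Rhox5 differed in many genes, and are called 2 kinds here. The division was seen after the values were known, so it is given without a test. In 25 members Rhox5 was found (chrX:37804842-37808876, plus strand, mm10), a homeobox gene of the reproductive cluster on the X chromosome that is known from testis and placenta and is often active in mouse tumour cell lines. The other 58 had no UMI of Rhox5. Of the 25, 23 also had Rhox2h and 18 Rhox2d, and neither gene was found in any of the 58. Hmga2, a chromatin protein of embryonic and transformed cells, was found in 24 of the 25 and in 5 of the 58. Ptn, the growth factor pleiotrophin, was found in all 25 at 17.4 per 10000 UMIs and in 20 of the 58 at 0.665. Dkk2, a secreted Wnt antagonist, was found in 23 and in 10, and Nr2f1, a nuclear receptor, in 21 and in 4. The 58 were not uniform, and a shallow cell can have missed Rhox5. Among them a cell of positive replicate 5 with 4573 UMIs had Ptn at 17.5, Hmga2 at 2.19 and Col1a2 at 0 per 10000 UMIs. Another, of negative replicate 6 with 2584 UMIs, had Cxcl12 at 159, Lepr at 31.0 and both Col1a1 and Col3a1 at 0.

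The 2 kinds shared many matrix and fibroblast genes and differed in others. Of the 29 matrix genes 2, Timp3 and Mmp2, were at 0 in the 25, and of the 15 fibroblast genes 0 were. Cxcl12 and Thy1 (a surface protein of fibroblasts) were found in 0 of the 25, which allows a share of up to 12% of cells with a UMI and does not show that the genes were silent, against 37 and 35 of the 58. Pdpn (podoplanin), Cdh11 (the fibroblast cadherin) and Igfbp5 were also found in 0 of the 25, against 41, 39 and 42 of the 58. Col1a2 was found in 3 of the 25 at 0.122 per 10000 UMIs and in 56 of the 58 at 48.2. Lox, which crosslinks collagen, was found in 1 of the 25 and in 48 of the 58. Lepr was found in 6 of the 25 and in 5 of the 58, and only 2 of the 83 members had both Lepr and Cxcl12. Col3a1 was shared, at 49.9 per 10000 UMIs in the 25 and 103 in the 58, and Col6a3 stood at 15.8 and 13.9. Fibroblast genes were shared as well, with Dcn in 24 of the 25 and 53 of the 58, Prrx1, a mesenchymal transcription factor, in 24 and 52, and Pdgfra in 24 and 43. Of the 25, 17 had entered by Col1a1, Col3a1 and Pdgfrb alone, a combination found in 1 of the 58.

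**Figure D2:**
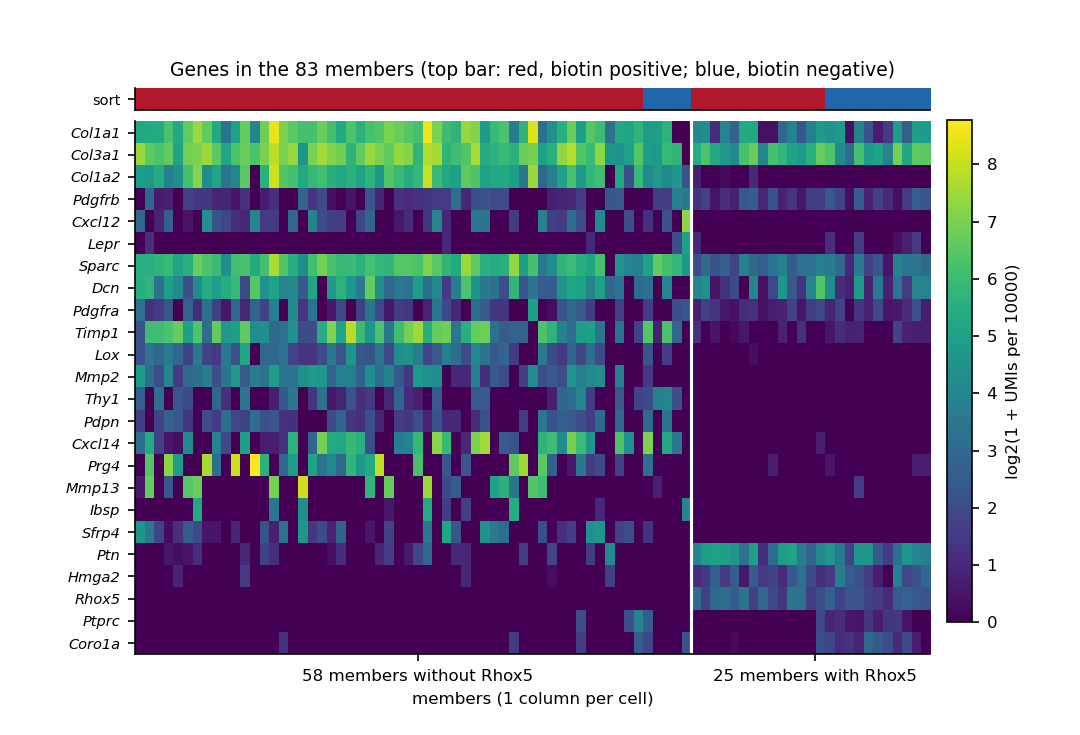
Levels of 24 genes, as log2 of 1 plus UMIs per 10000, in each of the 83 members, 1 column per cell; the bar on top gives the sort. The 25 members with Rhox5, on the right, show Ptn and Hmga2 and almost no Col1a2, Cxcl12, Lox or Mmp2, and 11 of them are biotin negative.

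The 2 kinds also differed in depth and in blood cell genes. The median was 26189 UMIs in the 25 and 14512 in the 58, and genes of ribosomal proteins made up a median of 23.5% and 12.9% of UMIs. Blood cell genes were carried by 12 of the 25 and by 6 of the 58. All 11 biotin negative members with Rhox5 carried them, against 1 of the 14 biotin positive ones. Outside the marker rule, Rhox5 was found in 146 more kept cells. The share of all kept cells with Rhox5 was 0.402% to 3.56% in the 6 biotin positive samples and 0.388% to 0.668% in the 6 negative ones, so these ranges overlapped.

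**Figure D3:**
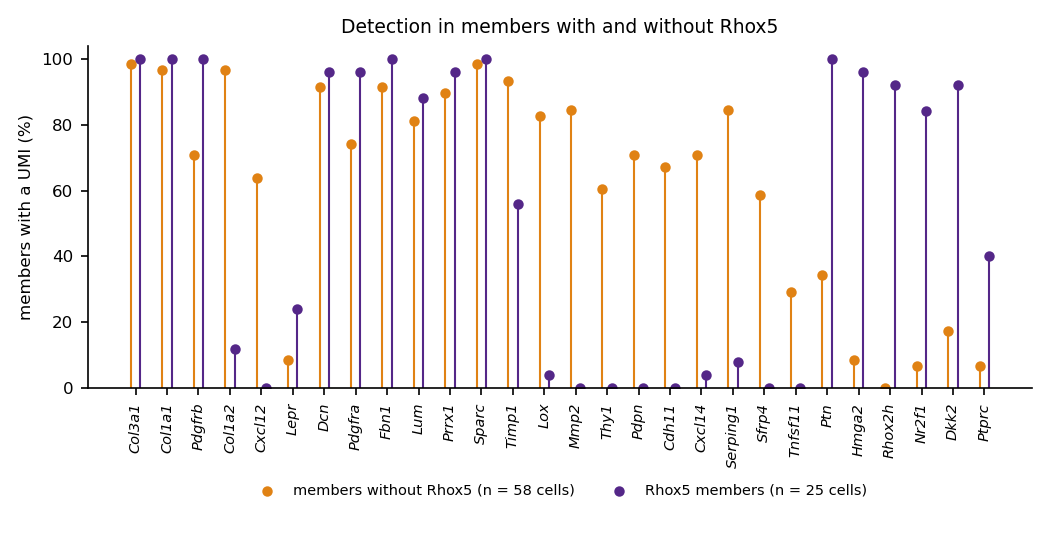
Share of members with at least 1 UMI for 28 genes, in the 58 members without Rhox5 (orange) and the 25 with Rhox5 (purple), 1 point per gene and kind. Col3a1, Col1a1, Dcn and Prrx1 were common in both, while Lox, Mmp2, Thy1 and Pdpn were seen in at most 1 of the 25.

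Within the 58 members without Rhox5, the 3 samples with most of them had different summed levels of several genes. Biotin positive replicates 2, 3 and 5 had 18, 22 and 9 of these members. Prg4 stood at 74.8, 35.4 and 3.53 per 10000 UMIs in the 3 samples in this order. Cxcl14 went the other way, at 6.53, 35.1 and 56.2. Thbs4 was found in 9, 11 and 0 of the members at 6.06, 35.4 and 0. Rarres2, which encodes the chemoattractant chemerin, stood at 5.62, 1.06 and 17.5, and Mgp at 6.25, 44.6 and 5.81. Col3a1, at 102, 117 and 101, varied little. Few cells carried some of these sums. In replicate 2, 4 of the 18 members held 2605 of 2875 Prg4 UMIs, and in replicate 3, 1 of the 22 held 547 of 1167. In replicate 5, 2 of the 9 members held 560 of 764 Cxcl14 UMIs. The differences between these samples were not tested, and samples are not ordered.

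The first comparison asked whether cells that meet the marker rule were more frequent among tagged cells. Counting both kinds, with and without Rhox5, members made up 67 of 4889 biotin positive cells and 16 of 17473 biotin negative cells. In the biotin positive replicates 1 to 6 there were 4, 19, 32, 1, 10 and 1 members, which is 0.946%, 3.92%, 3.35%, 0.402%, 0.467% and 0.157% of kept cells. In the biotin negative replicates 1 to 6 there were 2, 4, 2, 2, 1 and 5 members, or 0.0770%, 0.149%, 0.0861%, 0.0651%, 0.0287% and 0.151%. The positive shares were spread widely and the negative ones lay close together. The groups did not overlap, but by a narrow margin: positive replicate 6 (1 of 637 cells, exact 95% Clopper-Pearson interval 0.00397% to 0.872%) was just above negative replicate 6 (5 of 3306 cells, 0.0491% to 0.353%), and these intervals overlap and cover counting error only.

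The mean share was 1.54% ± 1.65 (SD, n = 6) in the biotin positive samples and 0.0928% ± 0.0484 (SD, n = 6) in the negative ones, a difference of 1.45 percentage points and a ratio of 16.6. The two-sided exact permutation test gave p = 0.00216, the smallest that 924 assignments allow. Without the 2 highest samples, positive replicates 2 and 3, the mean positive share was 0.493% and the difference 0.400 percentage points (exact permutation p = 0.00952). The hashtag threshold mattered: with a top hashtag of at least 5 times the second, positive replicates 1, 4 and 6 had 0 members, 46 positive and 14 negative members were left, and the difference of 0.981 percentage points no longer passed (exact permutation p = 0.199).

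The difference was also present in the members without Rhox5, at 53 biotin positive and 5 biotin negative members. Their mean share was 1.24% ± 1.44 (SD, n = 6) against 0.0318% ± 0.0395 (SD, n = 6), with samples at 0.157% to 3.71% against 0% to 0.0861% (exact permutation p = 0.00216). For members without blood cell genes the shares were 1.47% and 0.0256% (exact permutation p = 0.0152). With every cell thinned to 1000 UMIs, which left out 379 positive and 1010 negative cells, 48 positive and 6 negative members remained and the shares were 1.27% and 0.0412% (exact permutation p = 0.00216).

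**Figure D4:**
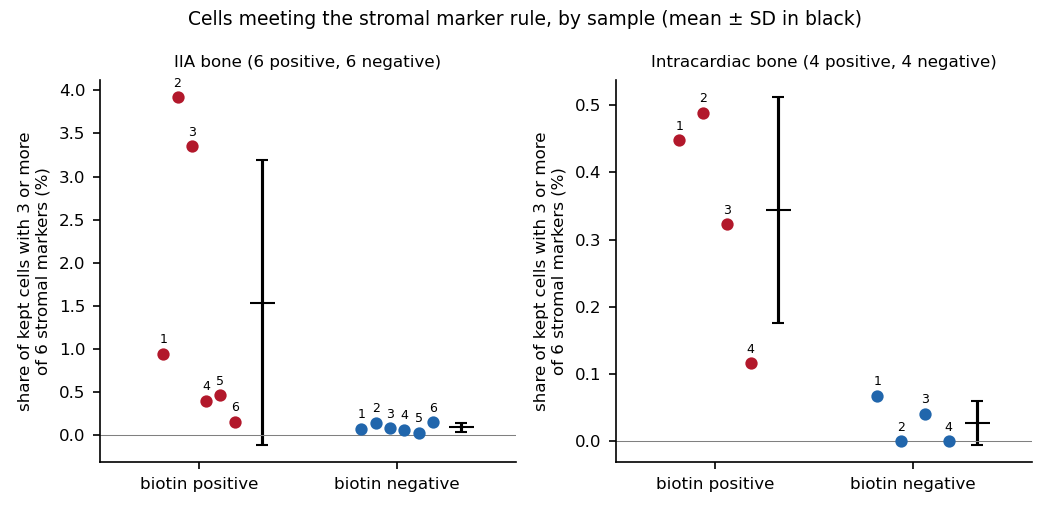
Share of kept cells with 3 or more of the 6 markers, in percent, 1 point per sample with its replicate number, and the mean with SD in black; the scales of the 2 panels differ. The IIA biotin positive samples sit between 0.157% and 3.92% and the negative ones between 0.0287% and 0.151%, and the intracardiac samples at 0.116% to 0.489% and 0% to 0.0675%.

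The genes of the rule varied between samples within each sort. Col1a1 was lowest at 8.21, had a median of 49.1 and was highest at 77.2 per 10000 UMIs over the 6 positive samples, against 1.88, 18.2 and 32.2 over the 6 negative ones. Col1a2 stood at 6.57, 28.7 and 59.9 against 0, 0.0512 and 19.1. Cxcl12 stood at 0, 2.38 and 13.1 against 0, 0.217 and 4.20. The ranges of all 3 genes overlapped between the sorts. Pdgfrb, at 0, 1.03 and 1.73 against 1.13, 1.92 and 5.96, overlapped as well. Lepr was found in 4 positive and 7 negative members. These values are sums over all members of a sample, 1 cell in positive replicates 4 and 6 and in negative replicate 5.

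The second comparison asked how members differed between the sorts in gene expression. Too few biotin negative members were found for the 10 per sample that had been planned, and no negative sample reached that number. The reported fit therefore took the 9 samples with at least 2 members, positive replicates 1, 2, 3 and 5 and negative replicates 1, 2, 3, 4 and 6, a limit set after the member counts were seen. With edgeR's quasi-likelihood test on the summed counts and Benjamini-Hochberg adjustment, 18 of 1695 tested genes (1.06%) passed an adjusted p of 0.05. Of these 12 were higher (0.708%) and 6 lower (0.354%) in biotin positive members, and 208 had an unadjusted p under 0.05. Over all 1695 genes the median log2 difference was 0.03, and the samples of the 2 sorts did not overlap for 75 genes (4.42%).

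By size, the fitted difference was greatest for Mmp2 among the higher genes without overlap between the sorts. Mmp2, the gelatinase that cuts collagen IV and denatured collagen (chr8:92827291-92853420, plus strand, mm10), had 5.65, 9.48, 4.63 and 9.07 UMIs per 10000 in positive replicates 1, 2, 3 and 5. In negative replicates 1, 2, 3, 4 and 6 it had 0, 0.520, 0, 0 and 0. All positive samples were above all negative ones, and the fitted log2 difference was 5.22 ± 0.678 (SE; edgeR, adjusted p = 0.00314). Prg4 stood at 6.32, 70.1, 17.02 and 3.18 against 0.317, 2.43, 0, 0 and 0.205. Its 2 highest samples were positive replicates 2 and 3, and its log2 difference was 4.86 ± 1.04 (edgeR, adjusted p = 0.0443). This call was not stable: without positive replicate 2 the difference was 3.43 (adjusted p = 0.137), and it was also lost when positive replicate 3 or negative replicate 1, 3, 4 or 6 was dropped. Sfrp4 stood at 4.79, 1.90, 1.53 and 3.51 against 0, 0.433, 0, 0 and 0, again without overlap, with a log2 difference of 4.07 ± 0.723 (edgeR, adjusted p = 0.0217), and missed the threshold when negative replicate 1, 4 or 6 was dropped. Since most negative values are 0 or rest on 1 sample, the sizes of these fitted differences depend on how zeros are treated: without negative replicate 2 they were 10.1 for Mmp2, 8.74 for Sfrp4 and 7.09 for Prg4. Mmp2 passed whichever single sample was dropped.

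A further 6 genes were higher without overlap between the sorts. They were Chl1 (a cell adhesion protein; log2 difference 4.79), Gpx3 (the secreted glutathione peroxidase; 3.81), Glis3 (a zinc finger transcription factor; 3.71), Sulf1 (an enzyme that trims heparan sulfate; 3.66), Mrc2 (the collagen uptake receptor Endo180; 2.65) and Plxdc2 (a plexin domain protein; 2.58). Chl1 and Glis3 passed whichever single sample was dropped. The sizes moved here too: without negative replicate 2 the log2 difference was 8.78 for Chl1, 5.03 for Sulf1 and 4.52 for Gpx3. It was 4.04 for Glis3 and 2.54 for Mrc2. Gpx3 and Sulf1 missed the threshold without negative replicate 6 (edgeR, adjusted p = 0.0705 for both). Mrc2 missed it without positive replicate 2 or without negative replicate 1, 2, 4 or 6 (adjusted p = 0.0712 to 0.0941). Plxdc2 missed it without positive replicate 3 or negative replicate 1, 4 or 6 (adjusted p = 0.0613 to 0.115), and was not tested without positive replicate 2 or 5 or negative replicate 2. Lower without overlap were 3 genes. Alox5ap, which leukocytes need to make leukotrienes, stood at 0.096, 0.049, 0.189 and 0.662 in the 4 positive samples and 0.950, 1.13, 1.19, 3.61 and 2.05 in the 5 negative ones, a log2 difference of -3.13 ± 0.661 (edgeR, adjusted p = 0.0443), which was lost when positive replicate 2 or 3 or negative replicate 1, 4 or 6 was dropped. Arhgdib had a log2 difference of -2.06, lost without positive replicate 2 or 3 or negative replicate 1, 4 or 6 (edgeR, adjusted p = 0.0545 to 0.202). Adpgk, an ADP-dependent glucokinase, had one of -2.15, lost without positive replicate 2 or 3 or negative replicate 6 (adjusted p = 0.0681 to 0.0825). These 3 lower genes were not tested without negative replicate 2.

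**Figure D5:**
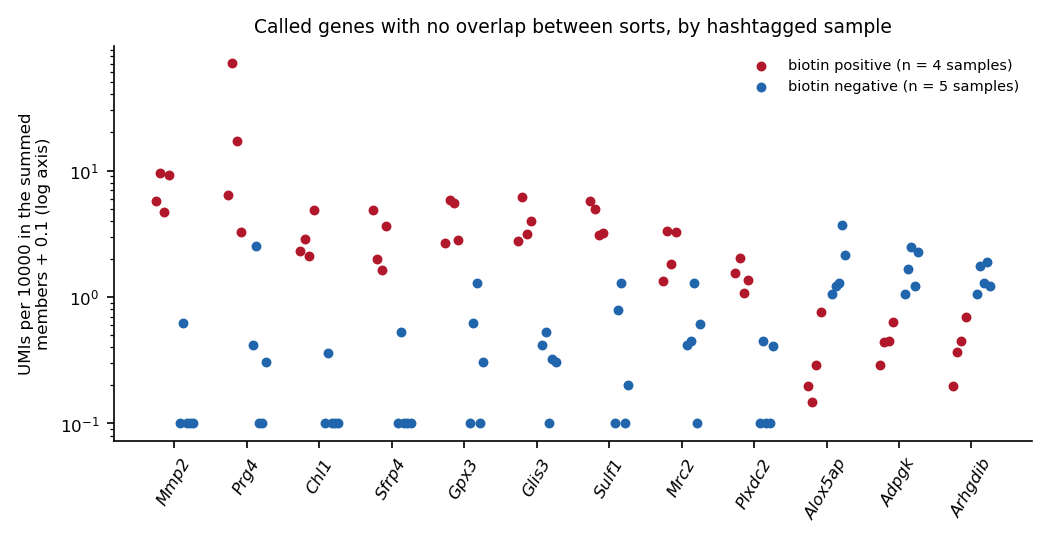
UMIs per 10000 plus 0.1, on a log axis, in the summed members of each hashtagged sample, for the 12 called genes whose sorts did not overlap (4 biotin positive samples in red, 5 negative in blue). For Mmp2, Chl1 and Sfrp4 only 1 of the 5 negative samples is above 0.

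The makeup of the members moved with the sort, and its part in these calls was not tested. Over all 12 samples, most biotin negative members had Rhox5 and blood cell genes: 11 of 16 had Rhox5 and 12 of 16 had blood cell genes, against 14 of 67 and 6 of 67 biotin positive ones. Mmp2, Sfrp4, Gpx3, Sulf1 and Plxdc2 had 0 UMIs in all 25 members with Rhox5, and Prg4 was found in 4 of them. Alox5ap was found in 16 of the 25 and in 7 of the 58. Among members without Rhox5, where 2 negative samples had at least 2 members, edgeR called 0 of 2233 genes, with 238 at an unadjusted p under 0.05 and a smallest adjusted p of 0.0806. The fitted log2 differences there were 4.34 for Glis3, 3.83 for Mmp2, 3.31 for Prg4, -2.28 for Adpgk and -3.30 for Alox5ap, so the fewer samples and the other makeup cannot be told apart as the reason for the lost calls. Among members without blood cell genes a single negative sample with 2 members was left, and its count of calls says nothing of their part. Dropping positive replicate 1, 2 or 5 gave 41, 10 or 32 called genes, and dropping negative replicate 1, 4 or 6 gave 7, 7 or 3.

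The counts by gene list stand beside the 1.06% called over all tested genes, 0.708% higher and 0.354% lower. At these shares lists of so few tested genes hold few calls, and nothing particular to a list is read from them. In the matrix list 1 of 26 tested genes was called higher (Mmp2) and 0 lower, with a median log2 difference of 0.82 beside 0.03 over all genes tested. In the fibroblast list 0 of 10 tested genes passed, with a median of 0.85, and Dcn had a log2 difference of 1.32 (edgeR, adjusted p = 0.0777). Sfrp4 was the called gene among 2 tested osteoclast coupling genes. The rule's own genes chose the cells in both sorts, so their log2 differences are a description without a test: 1.52 for Col1a1, 2.87 for Col1a2, 0.77 for Col3a1, 0.67 for Cxcl12 and -0.84 for Pdgfrb. In the reticular cell, osteoblast, TGF-beta and immune signal lists 0 of 4, 0 of 3, 0 of 7 and 0 of 8 tested genes passed. Of the pan-blood genes Coro1a, an actin regulator of leukocytes, was called lower among 4 tested, and the median of the 5 tested neutrophil genes was -3.89 with 0 called.

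The third comparison asked whether the difference between the sorts was another in members than in the other cells of the same samples. With the hashtagged sample as a block, edgeR called 139 of 11706 genes (1.19%), 99 with a larger positive-minus-negative difference in members (0.846%) and 40 with a smaller one (0.342%). The 99 include 1 gene of the marker rule, Col1a2, from which nothing is read. Ebf1 had the smallest adjusted p. It stood at 6.07 per 10000 UMIs in biotin positive and 2.05 in biotin negative members, and at 0.181 and 2.80 in the other cells, an interaction of 5.71 ± 0.707 on the log2 scale (edgeR, adjusted p = 4.86e-06). The levels of Ebf1, which is also a B cell gene, thus differed between the sorts in the other cells too, in the opposite direction, and both differences enter this value. Abi3bp, a matrix protein, stood at 4.14 and 0.202 in members and 0.00148 and 0.00677 in the others. Lifr, the leukemia inhibitory factor receptor, stood at 1.46 and 0.0336 in members and 0.0284 and 0.0972 in the others, but its negative members held 1 UMI in all, so the size of its interaction rests on that UMI. Itm2a, a membrane protein of cartilage and T cells, stood at 1.71 and 0.572 in members and 0.00889 and 0.0264 in the others. Its 17 UMIs in negative members came from 1 sample, and without negative replicate 2 the interaction went from 4.92 to 14.9.

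Of the 40 genes with a smaller difference, Nrp2 had the smallest adjusted p. This semaphorin receptor stood at 1.48 and 2.08 in positive and negative members and at 0.559 and 0.0841 in the other cells, an interaction of -3.79 ± 0.549 (edgeR, adjusted p = 5.4e-05). Spi1, the myeloid transcription factor PU.1, stood at 0.0222 and 0.774 in members and 2.08 and 2.55 in the others. Csf1r, the macrophage growth factor receptor, had 0 UMIs in the positive members and 9 in the negative ones. Most negative members carried blood cell genes, and the part of these in the calls was not tested, since members without them left a single negative sample. Rhox5 moved with the sort as well, in 11 of 16 negative and 14 of 67 positive members. In members without Rhox5, with 2 negative samples left, edgeR called 59 of 12193 genes. Ebf1 passed there at 4.67 (adjusted p = 1e-04) and Itm2a at 3.29 (adjusted p = 0.0474). Abi3bp, at 3.78 (adjusted p = 0.563), Nrp2, at -2.07 (adjusted p = 0.745), and Spi1, at -1.56 (adjusted p = 0.886), did not pass in that fit. Dropping positive replicate 5 gave 312 called genes, and dropping negative replicate 3 gave 80.

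The intracardiac bones gave the same comparison after another injection and with another multiplexing kit and library chemistry. At least 3 of the 6 markers were found in 9, 5, 2 and 1 cells of the biotin positive replicates 1 to 4, or 0.448%, 0.489%, 0.323% and 0.116% of kept cells. In the biotin negative replicates 1 to 4 they were found in 2, 0, 1 and 0 cells, or 0.0675%, 0%, 0.0409% and 0%. The counts of 0 were among 2570 and 3505 cells, which allows shares of up to 0.117% and 0.0856%. The groups did not overlap. The means were 0.344% ± 0.168 (SD, n = 4) and 0.0271% ± 0.0331 (SD, n = 4), and the two-sided exact permutation test gave p = 0.0286, the smallest that 70 assignments allow.

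The 20 intracardiac cells are set beside the members without Rhox5 here. Cxcl12 was found in 15 of the 20, Lepr in 10, Kitl in 10, Lpl in 13 and Adipoq in 5, against 37, 5, 17, 9 and 1 of the 58 members without Rhox5. Rhox5 was found in 0 of the 20, which allows a share of up to 15% of cells with a UMI, and in 3 of all 15997 intracardiac bone cells. Prg4 was found in 7, Sparc in 19 and Dcn in 14 of the 20, against 31, 57 and 53 of the 58. Of the 20, 12 were free of blood cell genes. Injection, multiplexing kit, library chemistry (3 prime in the intracardiac set) and Cell Ranger version differ together between the sets. Their parts cannot be told apart, and the difference was not tested. Depth was not matched either: the 20 cells held 169527 UMIs in all, and the 58 had a median of 14512 UMIs per cell. The IIA library shared 0 to 3 barcodes with each intracardiac bone library, and these shared 0 to 7 with each other.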

How the data were processed

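The deposited matrices hold raw UMI counts for 32285 genes in each barcode. Per the file headers, matrices were written by Cell Ranger 7.1.0 (IIA) and 6.1.2 (intracardiac), and the submitters' processing notes name mm10 and Seurat. Whether introns were counted is not given in the sources used here. Matrix hashtag names were matched to the submitters' hashtag text by number.

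Cells needed a top hashtag of at least 10 counts and 3 times the second, 500 UMIs, 200 genes and at most 15% mitochondrial UMIs. Counts were summed per sample and tested with edgeR 4.0.16 (TMM, filterByExpr, quasi-likelihood); SE is the log2 difference over the root of F, an approximation. The planned 10 members per sample left no negative sample, so 2 were used, and the planned test of subset shares was not run. Shares were compared by exact permutation, with the smaller tail doubled for a two-sided p. DESeq2 1.42.0 was an alternative. On simulated counts the edgeR fit recovered 94 of 100 genes changed 4-fold and 100 of 100 changed 16-fold, with 10 false calls among 1885 genes. The simulation gave every gene the same fixed spread, so it does not show how many changes are found in the real sums. In the real sums Camp, at a log2 difference of -5.20, did not pass (edgeR, adjusted p = 0.0698). An uncalled gene is therefore not shown to be unchanged. Positions are from GENCODE M21 (GRCm38/mm10).

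The members, gene lists and tests were chosen with earlier results of these data known. Named genes were the rule markers, listed genes, up to 15 called genes per direction by size whose sorts did not overlap, and up to 10 interaction genes per direction by p; Cxcl14, Thbs4, Mgp, Rarres2, Rhox genes and the others given with the Rhox5 division were chosen after their values were seen.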

Additional observations from a re-analysis of the deposited data

Results flagged for a closer look

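Of 28 sets of 4 to 6 samples checked for a value far from the others, 4 had one. All 4 were negative replicate 2, the only one of the 5 negative samples with Mmp2 (0.520 per 10000 UMIs), Chl1 (0.260) or Sfrp4 (0.433), and the one with the most Prg4 (2.43, next 0.317). For Mmp2, Chl1 and Sfrp4 all other negative values were 0, so any value above 0 would be flagged, whatever its size. The usual rate of about 1 in 20 does not apply to such genes, and the count of 4 is not read as an excess. Negative replicate 2 had 4 members, 2 of them without Rhox5.

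Data that the comparisons do not use held 89 barcodes with at least 3 stromal markers and no assigned hashtag. Of these 65 had Rhox5, 29 had Col1a2, and 61 were free of blood cell genes. Their 2 leading hashtags were 1 positive and 1 negative in 62, both positive in 16 and both negative in 11. Rhox5 was also found in 146 kept cells with fewer than 3 of the markers, at a median of 15596 UMIs, and 103 of them had at least 3 blood cell genes.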

How the results depend on the processing

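The difference in share between the sorts in IIA bone kept its direction under each alternative run and missed 0.05 with the hashtag ratio of 5 (0.981 percentage points, exact permutation p = 0.199). Without each sample in turn it was 0.972 to 1.72 points; it also missed 0.05 when a negative sample was left out and assignments were counted by absolute difference (exact permutation p of 0.0541 to 0.0628). With the replicate block, a sign-flip test over 6 pairs, exact p was 0.0312, the smallest possible; edgeR on cell numbers gave log2 ratios of 3.81 and, with the block, 3.89. Same-numbered samples 1, 2 and 3 correlated at 0.103, 0.039 and -0.045. Their negative samples had 2, 4 and 2 members, too few to show whether equal numbers mean the same animal. The labels do not say so, and the reported tests left the samples unpaired. In intracardiac bone the block left the difference at 0.317 points with exact p = 0.125, the smallest 4 pairs allow; without each sample it was 0.268 to 0.393 points (exact p = 0.0571, the smallest possible). The count of 18 called genes was 376 with no low-count filter, 55 with DESeq2, 9 with 5 members per sample, 7 with 1, 6 with at least 4 markers, 5 with the replicate block (3 pairs; Mmp2, Prg4 and Alox5ap of the 12 named genes), 1 without blood cell genes (0 with 1 member per sample) and 0 without Rhox5; without each sample it was 3 to 41. Of 206 values of the 12 named genes 0 reversed and 94 no longer passed. The interaction count of 139 was 221 with no filter, 4 of 13144 genes without blood cell genes (1 negative sample, so the loss is no sign of their part), 59 without Rhox5 (2 negative samples) and 80 to 312 without each sample; without blood cell genes Abi3bp (-2.12), Ccl7 (7.96), Arhgap22 (8.57), Mertk (2.47) and Spi1 (5.31) reversed, none passing. The cause was not tested. The settings without Rhox5, with 1 or 2 members per sample, without positive replicates 2 and 3 together, and the block on cell numbers were chosen after seeing the data. A minimum of 20 members was not run, since 1 sample had that many. Limits: 83 cells, 73.5% of them from 3 samples.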
